A study of Homo sapiens with 6 samples.

Results

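The genes described here are 9 platelet and megakaryocyte genes, chosen by symbol: MMRN1, ITGA2B, ITGB3, GP1BB, GP9, PF4, PPBP, SELP and TUBB1. All 9 were found among the 60609 genes of the count files, each under 1 identifier. They were measured by poly(A) RNA-seq in K562, an established human leukaemia line with erythroid and megakaryocytic features. EP400 is the remodelling ATPase of TIP60, and its endogenous alleles were tagged for degradation in every library, and the cells had received 500 nM dTAGV-1, the compound that triggers loss of the tagged protein, for 24 h. The WT cells (3 libraries) expressed exogenous wild-type EP400 from the AAVS1 safe-harbour site, and the Delta-TRRAP cells (3 libraries) expressed EP400 lacking the SANT and HD domains that hold the TRRAP module. A single clone of each complemented line was used, so clone and genotype cannot be told apart, and the p-values below measure only the spread between libraries of 1 clone. Libraries are named by group and replicate number.

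Megakaryocytes are the large marrow cells that shed platelets, and their late genes fall into a few functional groups. Integrin alpha IIb (ITGA2B) and integrin beta 3 (ITGB3) pair on the surface as the fibrinogen receptor, while GP1BB and GP9 are subunits of the receptor complex for von Willebrand factor. PF4 and PPBP are chemokines, MMRN1 is a factor V-binding protein and SELP is an adhesion receptor, all 4 stored in alpha granules. TUBB1 is the beta tubulin of the platelet marginal band. K562 cells can be pushed toward either the erythroid or the megakaryocytic side, and GATA1, RUNX1, FLI1 and NFE2 are factors that act on such genes in megakaryocytes.

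Library totals ran from 39966818 to 42616061 counts for WT and from 35076835 to 38491513 for Delta-TRRAP. EP400 itself lay between 4897 and 5377 normalized counts in WT and between 4357 and 6833 in Delta-TRRAP, and did not differ beyond replicate spread (edgeR adjusted p = 0.272). A gene count does not resolve the tag, the transgene or the deleted domains, so it checks no label. Genes of the mitochondrial genome held between 3.18% and 3.71% of each WT library, against 5.07% to 6.24% of each Delta-TRRAP library, and 25668 to 25998 against 27928 to 28033 genes had a count. The part of these library differences in the results below was not tested. The labels call the cells K-562 and lymphoblast. All 9 erythroid markers of K562 were tested, with a median log2 fold change of 0.18. Of these 3 rose, HBE1 and HBZ among them, and 1 fell, against 16.5% higher and 6.08% lower over all genes tested. At an unadjusted edgeR p under 0.05, 6 were higher and 2 lower. The marker that fell was TFRC, the transferrin receptor, at -1.09 on the log2 scale. TFRC was at -0.96 with library size scaling and -0.99 with upper quartile scaling, neither a call. The summed level of the 9, most of it TFRC, ran from 211410 to 213768 normalized counts in WT, against 135751 to 140656 in Delta-TRRAP. Of the lymphoid markers, MS4A1 had no counts, CD3E, CD79A and CD2 had group means of 18.8 normalized counts or less, and PTPRC, shared by most white cells, made up nearly all of the summed level. That sum was 15846 to 16435 normalized counts in WT, against 3751 to 4318 in Delta-TRRAP, with PTPRC called lower at -2.03 on the log2 scale.

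The measured members did not move in a common direction. MMRN1 and ITGA2B fell in Delta-TRRAP, TUBB1 rose, and ITGB3 did not pass the test. Of the 9 members, 4 reached the mean normalized count of 5 that the test required, and the other 5 had between 0 and 5 counts in each library. MMRN1 passed this minimum through the WT libraries alone, so the count of called genes among those tested is a description only. A gene was called changed at an edgeR adjusted p of 0.01 or less with at least a 2-fold change. Across all 19114 genes tested 22.6% were called, 16.5% higher and 6.08% lower. The groups did not overlap for 71.1% of all genes tested, so a lack of overlap by itself sets no gene apart. In bulk RNA, fewer cells that express a gene and less RNA per cell cannot be told apart.

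**Figure D1:**
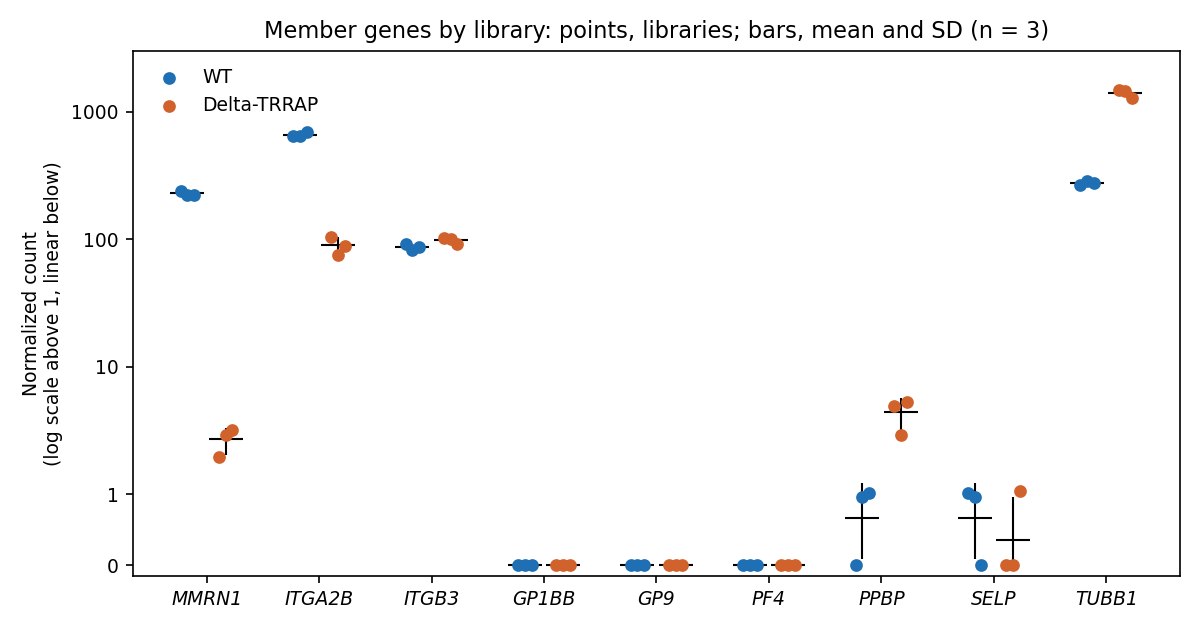
Normalized counts (vertical axis, log scale above 1 and linear below) of the 9 members in each WT (blue) and Delta-TRRAP (orange) library, with horizontal bars for the mean and vertical bars for the SD (n = 3). MMRN1 and ITGA2B sit lower and TUBB1 higher in all Delta-TRRAP libraries, ITGB3 lies at 82.5 to 102 in both groups, and GP1BB, GP9 and PF4 are at 0 throughout.

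The promoters of the 3 members that changed are shown because their transcripts moved in opposite directions. They cover 250 bases before to 50 bases after the RefSeq transcription start on GRCh38.p14, read 5′ to 3′ on the gene's own strand. MMRN1 has 2 annotated starts, whose promoters span chr4:89879261-89879560 and chr4:89894604-89894903 (both plus strand). The ITGA2B promoter spans chr17:44389600-44389899 (minus strand) and the TUBB1 promoter chr20:59019179-59019478 (plus strand). Capitals mark matches, on either strand, to letters typical of factors active in megakaryocytes. For GATA factors the forms searched were AGATAA as the first, TGATAA as the second, AGATAG as the third and TGATAG as the fourth. For ETS factors they were CGGAAG as the first and AGGAAG as the second. For RUNX factors they were TGTGGT alone, and for NF-E2 or AP-1 they were TGANTCA alone, where N is any base.
MMRN1, upstream start: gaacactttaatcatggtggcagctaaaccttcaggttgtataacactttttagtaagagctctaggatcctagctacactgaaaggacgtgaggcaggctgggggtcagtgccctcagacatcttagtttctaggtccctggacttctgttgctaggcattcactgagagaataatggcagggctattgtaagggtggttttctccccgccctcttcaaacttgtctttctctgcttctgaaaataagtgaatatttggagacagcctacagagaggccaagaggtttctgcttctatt
MMRN1, downstream start: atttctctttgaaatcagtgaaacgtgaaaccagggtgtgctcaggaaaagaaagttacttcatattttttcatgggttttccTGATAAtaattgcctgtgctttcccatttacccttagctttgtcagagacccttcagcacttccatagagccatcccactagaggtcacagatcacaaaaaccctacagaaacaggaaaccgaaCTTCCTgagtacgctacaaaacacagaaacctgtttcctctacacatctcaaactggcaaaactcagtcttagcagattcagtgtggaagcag
ITGA2B: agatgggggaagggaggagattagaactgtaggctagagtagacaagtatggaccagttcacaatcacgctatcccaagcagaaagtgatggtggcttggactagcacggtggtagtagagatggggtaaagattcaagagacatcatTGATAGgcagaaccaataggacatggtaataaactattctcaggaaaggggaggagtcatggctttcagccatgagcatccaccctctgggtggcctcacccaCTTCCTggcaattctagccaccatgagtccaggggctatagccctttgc
TUBB1: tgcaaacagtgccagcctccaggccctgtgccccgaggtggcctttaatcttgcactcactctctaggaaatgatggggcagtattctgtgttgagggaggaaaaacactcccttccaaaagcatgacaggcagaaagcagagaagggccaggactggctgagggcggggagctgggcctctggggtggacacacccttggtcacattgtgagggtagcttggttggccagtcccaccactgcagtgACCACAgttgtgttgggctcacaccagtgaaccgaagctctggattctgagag
The downstream MMRN1 promoter and the ITGA2B promoter each held 1 GATA and 1 ETS match, with no RUNX or NF-E2 match in either. The upstream MMRN1 promoter held none of the 4 motifs. The TUBB1 promoter held a single RUNX match, whose first base lies at -3 counted from the start at 0, and no GATA, ETS or NF-E2 match. None of these matches overlapped another. Among 35116 RefSeq promoters of the same length, 25.0% held a GATA match, 46.9% an ETS match, 13.1% a RUNX match and 7.71% an NF-E2 or AP-1 match. Of the 9 members, 7 had a promoter entry, and the counts do not show which start was used.

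MMRN1, which encodes multimerin 1, fell the furthest of the tested members. It had 237, 233 and 220 counts in WT replicates 1 to 3 and 2, 3 and 3 counts in the Delta-TRRAP replicates. Every WT library was far above every Delta-TRRAP library, and the Delta-TRRAP libraries were at the edge of what these depths can count. The mean normalized count was 229 ± 9.51 in WT and 2.69 ± 0.640 in Delta-TRRAP (SD, n = 3 each). The edgeR fit gave a log2 fold change of -6.36 ± 0.21 (SE) at an adjusted p of 1.31e-12. Because only 8 counts remained in Delta-TRRAP, the fold is better read from summed counts: 690 against 8 gave a level 85.6-fold higher in WT, with an exact 95% interval of 43.2 to 199 that covers counting error only. On GRCh38 the gene spans chromosome 4 from 89879532 to 89954629, on the plus strand. The profile of MMRN1 over the 6 libraries lay nearest to those of LCP2, DLK1 and GPR85, with Pearson r of 0.9991, 0.9989 and 0.9979. These correlations mostly restate the difference between 2 groups of 3.

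The relatives of MMRN1 had smaller log2 fold changes. MMRN2, the other multimerin, had 84.3 ± 8.99 normalized counts in WT against 20.3 ± 2.98 in Delta-TRRAP (SD, n = 3 each), a log2 fold change of -2.04 ± 0.19 (SE) at an edgeR adjusted p of 1.59e-07. EMILIN1 and EMILIN2, extracellular matrix glycoproteins of the same family, were tested and not called, at -0.62 and -0.42 on the log2 scale. EMILIN3 was below the count minimum. MMRN1 and SELP are also made by endothelial cells. Among 9 endothelial markers, CDH5 and EMCN, a junction protein and a sialomucin, had means of at most 0.65 normalized counts, and the list summed to between 682 and 695 in WT, against 431 to 507 in Delta-TRRAP, nearly all of it PECAM1, which platelets carry as well. Of the 9, 4 were tested, with 2 called higher and 0 lower, against 16.5% higher and 6.08% lower over all genes tested. The 2 were TEK and ROBO4, at means of 34.0 and 10.4 normalized counts in Delta-TRRAP. Without Delta-TRRAP replicate 1, 3 were tested and 1 was higher. With no count minimum, 9 were tested and 4 were higher, so the count is a description only.

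ITGA2B, the alpha IIb subunit, was the other member that fell. It had 638, 666 and 685 counts in the WT replicates and 106, 77 and 84 in the Delta-TRRAP replicates. The groups were well apart, and Delta-TRRAP replicate 1 was the highest of its group. The mean normalized count was 661 ± 31.6 in WT and 89.3 ± 14.4 in Delta-TRRAP (SD, n = 3 each). The edgeR fit gave a log2 fold change of -2.89 ± 0.10 (SE) at an adjusted p of 2.17e-12. The gene lies on chromosome 17 from 44372180 to 44389649, on the minus strand.

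ITGB3, its partner on the platelet surface, was not called. It had 91, 86 and 85 counts in the WT replicates and 104, 103 and 86 in the Delta-TRRAP replicates, so the groups overlapped. The mean normalized count was 87.1 ± 4.88 in WT and 97.8 ± 5.96 in Delta-TRRAP (SD, n = 3 each). The edgeR fit gave a log2 fold change of 0.17 ± 0.13 (SE) at an adjusted p of 0.253, and the ratio of summed counts was 1.13 with an exact 95% interval of 0.95 to 1.34 for counting error. At this depth a change of that size was not detectable. ITGB3 (chromosome 17, 47253827 to 47313743, plus strand) shares 2266 of its 6829 exon bases in GENCODE 44 with another gene on the same strand, ENSG00000259753, which had no counts in any library. Reads in bases shared by 2 genes are left uncounted in the counting mode used.

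The ratio within the integrin pair was lower in every Delta-TRRAP library. Levels per length were taken in CPM (here counts relative to TMM-scaled library size) per kilobase of annotated exon. ITGA2B had a level of 2.98 ± 0.142 and ITGB3 of 0.328 ± 0.0184 in WT (SD, n = 3 each). In Delta-TRRAP these levels were 0.403 ± 0.0652 and 0.368 ± 0.0224. The ratio of ITGA2B to ITGB3 was 8.41, 9.29 and 9.66 in the WT libraries and 1.22, 0.896 and 1.17 in the Delta-TRRAP libraries. All WT ratios lay above all Delta-TRRAP ratios, with a two-sided exact permutation p of 0.10, the smallest that 3 libraries against 3 allow. With the level of ITGB3 taken over its 4563 unshared exon bases alone, an alternative chosen after seeing the data, the ratio was 5.62, 6.20 and 6.46 in WT and 0.817, 0.599 and 0.783 in Delta-TRRAP. ITGA2B was then below ITGB3 in every Delta-TRRAP library, so which of the pair was higher there depends on the length used. The length scales ITGB3 alike in all 6 libraries, so the fold of the ratio between groups could not change with it. ITGAV, the alpha subunit that pairs with beta 3 in many other cells, had 5058 ± 75.1 normalized counts in WT against 5280 ± 204 in Delta-TRRAP (SD, n = 3 each), with a log2 fold change of 0.06 ± 0.05 (SE), edgeR adjusted p 0.282. Its level per length exceeded that of ITGB3 by 17.8 to 21.3 times in all 6 libraries, or by 11.9 to 14.2 times on the unshared length of ITGB3.

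Other integrin genes moved in both directions. Of 17 further alpha subunit genes, 12 were tested, 7 were called higher and 0 lower, with a median log2 fold change of 2.08, against 16.5% called higher and 6.08% lower over all genes tested. ITGA1, ITGA2 and ITGA9, with WT means of 1.32, 3.63 and 1.69 normalized counts, passed the count minimum only through Delta-TRRAP, so the count and the median are a description of the genes that passed. With a minimum of 50, 3 were tested, 0 were called in either direction and the median was -0.38, and with no minimum 16 were tested, 7 were higher, ITGA8 was lower and the median was 0.92. At an unadjusted p under 0.05, 3 of these 12 were lower, and 0 were called lower by DESeq2. The 7 that rose had group means of 15.8 to 77.9 normalized counts in Delta-TRRAP. ITGA9 rose the most, from 1.69 ± 1.55 to 77.9 ± 10.3 normalized counts (SD, n = 3 each), a log2 fold change of 5.45 ± 0.38 (SE) at an edgeR adjusted p of 5.04e-09. Of 7 further beta subunit genes, 5 were tested and 2 fell. ITGB2, the leukocyte beta subunit, fell by 2.99 ± 0.23 on the log2 scale (edgeR adjusted p = 1.54e-08), from 80.4 ± 2.65 to 10.1 ± 3.46 normalized counts. ITGB5, another partner of ITGAV, fell by 2.77 ± 0.06 (edgeR adjusted p = 2.20e-14).

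**Figure D2:**
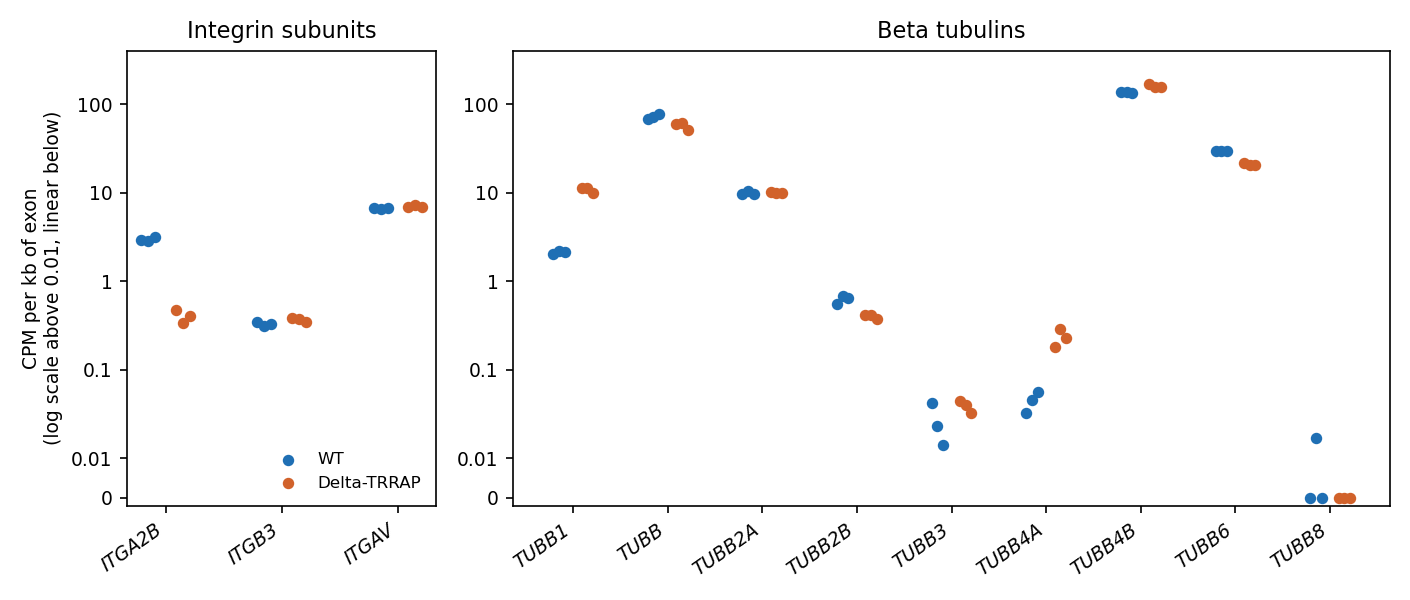
CPM per kilobase of exon (vertical axes, log scale above 0.01 and linear below) of integrin subunits (left) and beta tubulins (right) in each WT (blue) and Delta-TRRAP (orange) library. All levels use the full exon length. ITGA2B drops from 2.98 to 0.403 in Delta-TRRAP, near ITGB3 at 0.368 (0.551 on its unshared length), and TUBB1 rises from 2.13 to 10.8 while TUBB4B stays the most abundant beta tubulin.

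TUBB1, the beta tubulin of the platelet marginal band, rose. It had 262, 297 and 272 counts in the WT replicates and 1502, 1491 and 1207 in the Delta-TRRAP replicates. Each Delta-TRRAP library was above all WT libraries, with replicate 3 the lowest of its group. The mean normalized count was 276 ± 9.76 in WT and 1401 ± 108 in Delta-TRRAP (SD, n = 3 each). The edgeR fit gave a log2 fold change of 2.34 ± 0.07 (SE) at an adjusted p of 5.66e-13. The nearest profiles over the 6 libraries were those of NEBL, SATB1 and HIST1H2AG, with Pearson r of 0.9987, 0.9989 and 0.9982, again set mostly by the 2 groups.

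Most other beta tubulin genes showed small differences. Of 8 further genes, 7 were tested, 1 was called higher, against 16.5% of all genes tested, and the median log2 fold change was 0.03. TUBB4A, a neuronal form, was the one called, from 5.64 ± 1.54 to 29.1 ± 6.77 normalized counts (SD, n = 3 each), a log2 fold change of 2.34 ± 0.34 (SE) at an edgeR adjusted p of 1.71e-05. TUBB, a widely expressed form, had a log2 fold change of -0.34 ± 0.07 (SE) and was not called at a 2-fold change (edgeR adjusted p = 0.00053). TUBB1 made up 0.830% to 0.878% of the summed beta tubulin level per length in WT and 4.004% to 4.32% in Delta-TRRAP. These genes are alike in sequence and only uniquely mapping reads were counted, so levels between them are uncertain.

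The neighbours of TUBB1 had lower values. TUBB1 lies on chromosome 20 from 59019429 to 59026654, on the plus strand, and all 5 genes tested within 100 kb of it had negative log2 fold changes. CTSZ, which encodes cathepsin Z, was at -0.65 ± 0.05 (SE) and NELFCD, which encodes a negative elongation factor subunit, at -0.91 ± 0.05. PRELID3B was at -0.95 ± 0.05, ATP5F1E, a subunit gene of the mitochondrial ATP synthase, at -1.24 ± 0.08 and the non-coding AL109840.1 at -1.59 ± 0.43, the last 2 of these called lower (edgeR adjusted p of 1.35e-09 and 0.00416). Within 1 Mb, 20 genes were tested and had a median log2 fold change of -0.73 against 0.03 for all genes tested. Of the 20, 3 were called lower and 1 higher, against 6.08% lower and 16.5% higher over all genes tested. ATP5F1E is read from the opposite strand and overlaps 1180 of the 3321 exon bases of TUBB1. It had 11997 ± 1404 normalized counts in WT against 5075 ± 328 in Delta-TRRAP (SD, n = 3 each), a change opposite to that of TUBB1, and the counting used strand.

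The neighbours of the integrin pair had medians above 0, as had all genes tested, at 0.03. Of all genes tested 16.5% were called higher and 6.08% lower. Around ITGA2B, 49 genes within 1 Mb had a median log2 fold change of 0.17, with 8 called higher and 4 lower. Within 100 kb, 8 genes were tested, 3 rose and 1 fell. RUNDC3A and its antisense partner RUNDC3A-AS1 rose by 2.43 ± 0.36 and 2.47 ± 0.22 (SE) on the log2 scale. AC003043.2 rose from 0.339 ± 0.587 to 24.4 ± 3.54 normalized counts (edgeR adjusted p = 5.71e-07), and passed the count minimum only through Delta-TRRAP. FAM171A2 fell from 245 ± 27.8 to 111 ± 6.07 normalized counts (edgeR adjusted p = 3.06e-07). GRN, the progranulin gene, was not called, at 0.12 on the log2 scale. Around ITGB3, 33 genes had a median of 0.26, with 5 called higher and 1 lower, which was MYL4, an atrial and embryonic myosin light chain gene, at -1.05 ± 0.05 (SE).

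**Figure D3:**
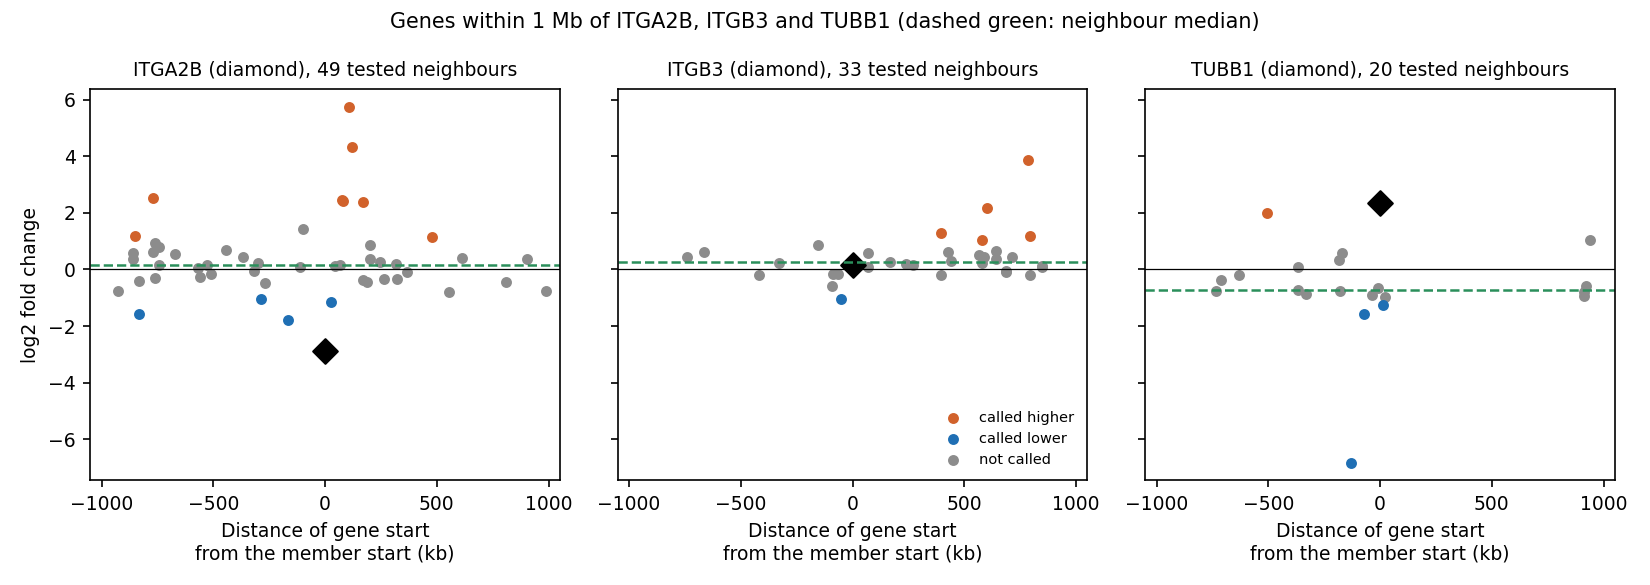
Log2 fold change (vertical axes) of genes tested within 1 Mb of ITGA2B, ITGB3 and TUBB1 against the distance of their start from the member's start in kb, positive in the direction of the member's transcription. The diamond is the member, orange, blue and grey points are genes called higher, called lower and not called, and the dashed green line is the neighbours' median. TUBB1 at 2.34 lies above its neighbours' median of -0.73, and ITGA2B at -2.89 lies below its neighbours' median of 0.17. The neighbours of MMRN1, the other changed member, are not reported here. The panels therefore do not show whether changed members in general differ from their surroundings.

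The alpha-granule chemokines had few or no counts in both groups. PPBP, the precursor of neutrophil-activating peptide 2, had 0, 1 and 1 counts in WT and 5, 3 and 5 in Delta-TRRAP. The groups did not overlap, yet the summed counts were only 2 and 13, a ratio of 6.55 with an exact 95% interval of 1.48 to 59.8. PPBP was below the count minimum and was not tested, and without that minimum its edgeR adjusted p was 0.0261, which is not a call. PF4, platelet factor 4, had no counts in any library. A count of 0 over 3 libraries allows a level of up to 0.0244 CPM in WT and 0.0270 CPM in Delta-TRRAP, where CPM is the count relative to unscaled library size. PPBP starts at -6163 bases from the start of PF4 on chromosome 4, with PF4 from 73980811 to 73982027 and PPBP from 73986439 to 73988190.

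Other chemokines of the same cluster were expressed. CXCL8, the neutrophil chemokine interleukin-8, rose from 307 ± 52.1 to 728 ± 77.1 normalized counts (SD, n = 3 each), a log2 fold change of 1.25 ± 0.11 (SE) at an edgeR adjusted p of 5.71e-08. CXCL3 and CXCL2 had 210 ± 19.9 and 137 ± 3.28 normalized counts in WT and 263.5 ± 22.1 and 126.5 ± 11.1 in Delta-TRRAP, and neither was called. CXCL1 was measured at 12.5 normalized counts or less, and CXCL5, CXCL6 and the PF4 copy PF4V1 were not tested, the last 2 with no counts. Of the chemokine receptors CXCR1, CXCR2 and CXCR3, none reached the count minimum.

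The receptor complex for von Willebrand factor had few or no counts. GP9, glycoprotein IX (chromosome 3, 129060779 to 129062406), had no counts in any library, with the same upper limits as PF4. GP1BA, the ligand-binding chain, also had none, and GP5 had 0 to 3 counts per library. GP1BB (chromosome 22, 19723539 to 19724771) was listed at 0 throughout, but this value cannot be read as a level. All 959 of its exon bases in GENCODE 44 are shared with AC000093.1, a gene on the same strand, and 412 of them with SEPTIN5, so that reads from GP1BB would fit more than 1 gene and stay uncounted. AC000093.1 had 3 to 8 counts per library and SEPTIN5 17 to 33, and neither was called. SELP, P-selectin (chromosome 1, 169588849 to 169630193), had 1, 1 and 0 counts in WT and 0, 0 and 1 in Delta-TRRAP, too few for a direction. SELE, E-selectin, was also below the minimum. SELPLG, the ligand of P-selectin on white cells, dropped from 215 ± 21.5 normalized counts to 48.2 ± 3.50 (SD, n = 3 each), with a log2 fold change of -2.15 ± 0.13 (SE), edgeR adjusted p 1.27e-09.

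Across members, levels can be ordered only per length. In WT the order was ITGA2B (2.98 ± 0.142 CPM per kilobase), TUBB1 (2.13 ± 0.0755), MMRN1 (1.07 ± 0.0443) and ITGB3 (0.328 ± 0.0184), with no overlap between neighbours in that order (SD, n = 3 each). In Delta-TRRAP it was TUBB1 (10.8 ± 0.836), then ITGA2B (0.403 ± 0.0652) and ITGB3 (0.368 ± 0.0224), which overlapped, and then MMRN1 at 0.0125 ± 0.00299, below PPBP at 0.0860 ± 0.0249. On its unshared length ITGB3 was at 0.490 ± 0.0275 in WT and 0.551 ± 0.0336 in Delta-TRRAP, which left its place in WT as it was and put it above ITGA2B in Delta-TRRAP with no overlap. TUBB1 lay above 50.6% of tested genes in WT and above 78.8% in Delta-TRRAP by this level. ITGA2B lay above 55.7% and 25.9%, and MMRN1 above 41.9% and 0.404%.

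**Figure D4:**
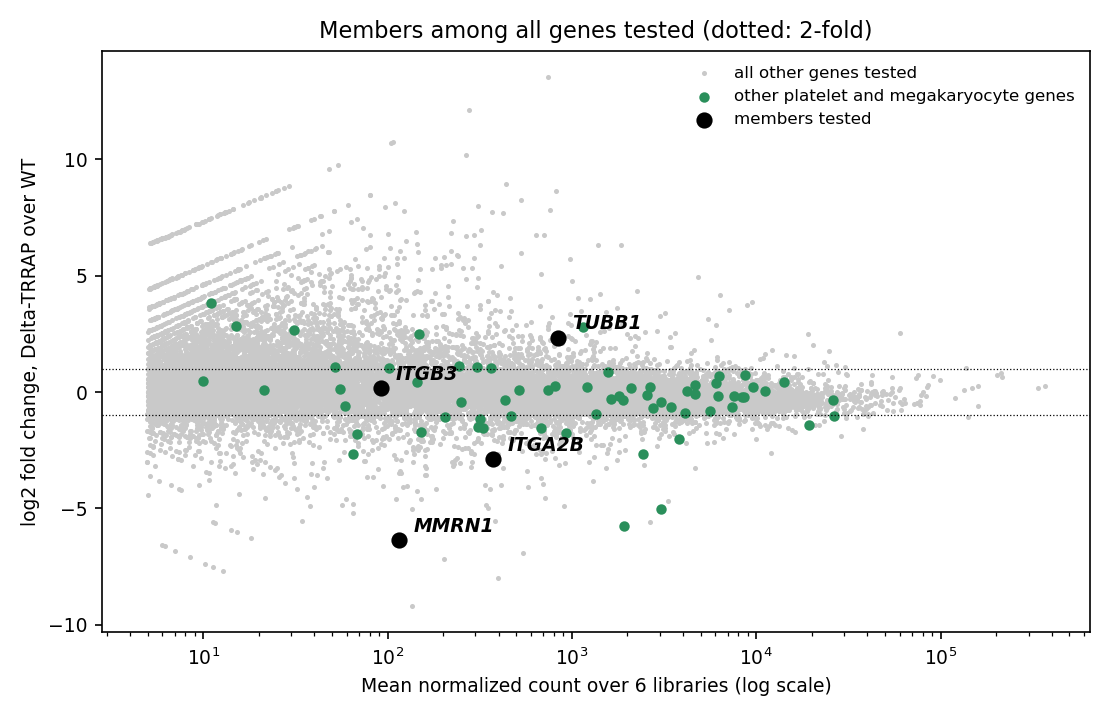
Log2 fold change of Delta-TRRAP over WT (vertical axis) against the mean normalized count over 6 libraries (horizontal axis, log scale) for 19114 genes tested (grey), with 65 other platelet and megakaryocyte genes (green) and the 4 members tested (black). MMRN1, ITGA2B and TUBB1 lie beyond the dotted lines of a 2-fold change and ITGB3 lies between them.

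The wider platelet and megakaryocyte program was read from 79 further genes in 6 lists by role. Of these, 65 were tested, 10 rose, 16 fell and 39 were not called, against 16.5% higher and 6.08% lower over all genes tested. The median log2 fold change of the 65 was -0.18, against 0.03 for all genes. ITGA2 and SLC6A4 passed the count minimum only through Delta-TRRAP. With a minimum of 50, 60 were tested, 7 were higher and 16 lower. Among surface receptors, 12 of 20 were tested, with 5 lower, 2 higher and a median of -0.92. FCGR2A, the platelet Fc receptor, dropped from 4190 ± 160 normalized counts to 668 ± 26.5 (SD, n = 3 each), a log2 fold change of -2.65 ± 0.06 (SE) at an edgeR adjusted p of 1.16e-14. F2RL3, a thrombin receptor, P2RX1, an ATP-gated channel, TBXA2R, the thromboxane receptor, and PEAR1, an adhesion receptor, also fell, at log2 fold changes of -1.77, -1.48, -1.17 and -1.01. PEAR1 was no longer called without WT replicate 2 (-0.96) or without Delta-TRRAP replicate 1 (-0.95). The collagen receptor subunit ITGA2 rose from 3.63 ± 1.01 to 26.6 ± 4.13 normalized counts, a log2 fold change of 2.83 ± 0.35 (SE), and CD226 rose by 1.02 ± 0.08, a call that ended without WT replicate 2 (0.97), without Delta-TRRAP replicate 2 (0.98) or with DESeq2, just under the 2-fold line, which left 1 receptor called higher. P2RY12, the ADP receptor, had no counts.

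Among genes that link receptors to integrin activation, all 9 were tested, 3 fell and 0 rose by edgeR, with a median of -0.69, and 0 rose by DESeq2. At an unadjusted p under 0.05, 1 of them was higher. Over all genes tested 16.5% were called higher and 6.08% lower. LCP2, the adaptor SLP-76, dropped from 3745 ± 115 normalized counts to 69.5 ± 6.61 (SD, n = 3 each), a log2 fold change of -5.75 ± 0.08 (SE) at an edgeR adjusted p of 1.32e-16. PLEK, pleckstrin, and RASGRP2, an exchange factor for RAP1, fell, at -2.66 and -1.09 on the log2 scale, the latter at -0.95 and no call with library size scaling. FERMT3, kindlin-3, which binds the beta subunit tail, had 4113 ± 113 normalized counts in WT and 4304 ± 256 in Delta-TRRAP and was not called (edgeR adjusted p = 0.298). TLN1, talin, had a log2 fold change of 0.42 ± 0.09 (SE), under 2-fold.

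Alpha-granule genes other than the members were mixed. Of 13, 9 were tested, 2 rose, 1 fell and the median was 0.10, against 16.5% higher and 6.08% lower over all genes tested. THBS1, thrombospondin 1, rose from 155 ± 26.8 to 333 ± 10.8 normalized counts (SD, n = 3 each), a log2 fold change of 1.10 ± 0.11 (SE) at an edgeR adjusted p of 3.11e-07. Without WT replicate 1 it was 0.97 and no longer a call. CLU, clusterin, rose by 1.05, or 0.94 and no call without Delta-TRRAP replicate 1. PDGFB fell by 1.80 ± 0.17. VWF, von Willebrand factor, had 0 to 6 counts per library. SRGN, serglycin, a proteoglycan of the granules, was not called, at 0.03 ± 0.06 (SE) on the log2 scale.

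Genes of dense granules and of eicosanoid synthesis moved both ways. Of 14, 13 were tested, 5 rose, 2 fell and the median was 0.21, against 16.5% higher and 6.08% lower over all genes tested. With a minimum of 50, 11 were tested, 3 were higher, 2 lower and the median was 0.20. RAB27B, a granule GTPase, dropped from 5882 ± 173 normalized counts to 182 ± 14.2 (SD, n = 3 each), a log2 fold change of -5.01 ± 0.07 (SE) at an edgeR adjusted p of 1.37e-16. PTGS1, cyclooxygenase 1, rose from 289 ± 16.95 to 2020 ± 22.3, by 2.80 ± 0.06 (edgeR adjusted p = 1.40e-14), while TBXAS1, the thromboxane synthase downstream of it, fell by 1.71 ± 0.13 (edgeR adjusted p = 1.67e-08). SLC6A4, the serotonin transporter, rose from 1.30 ± 1.46 to 20.7 ± 0.767 normalized counts, and passed the count minimum only through Delta-TRRAP. SLC18A2, the vesicular monoamine transporter, rose by 2.69. ALOX12 and LYST rose by 1.07 each. Leaving out WT replicate 1 or Delta-TRRAP replicate 3 ended the call of ALOX12 (0.96 and 0.98), and leaving out Delta-TRRAP replicate 2 ended that of LYST (0.98). Among 11 cytoskeletal genes, all tested, VCL, vinculin, and DIAPH1, a formin, fell by 1.40 and 1.03, and MYLK, myosin light chain kinase, rose by 2.50 ± 0.16. DIAPH1 was no longer called without WT replicate 3 (-0.995) or Delta-TRRAP replicate 3 (-0.97).

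**Figure D5:**
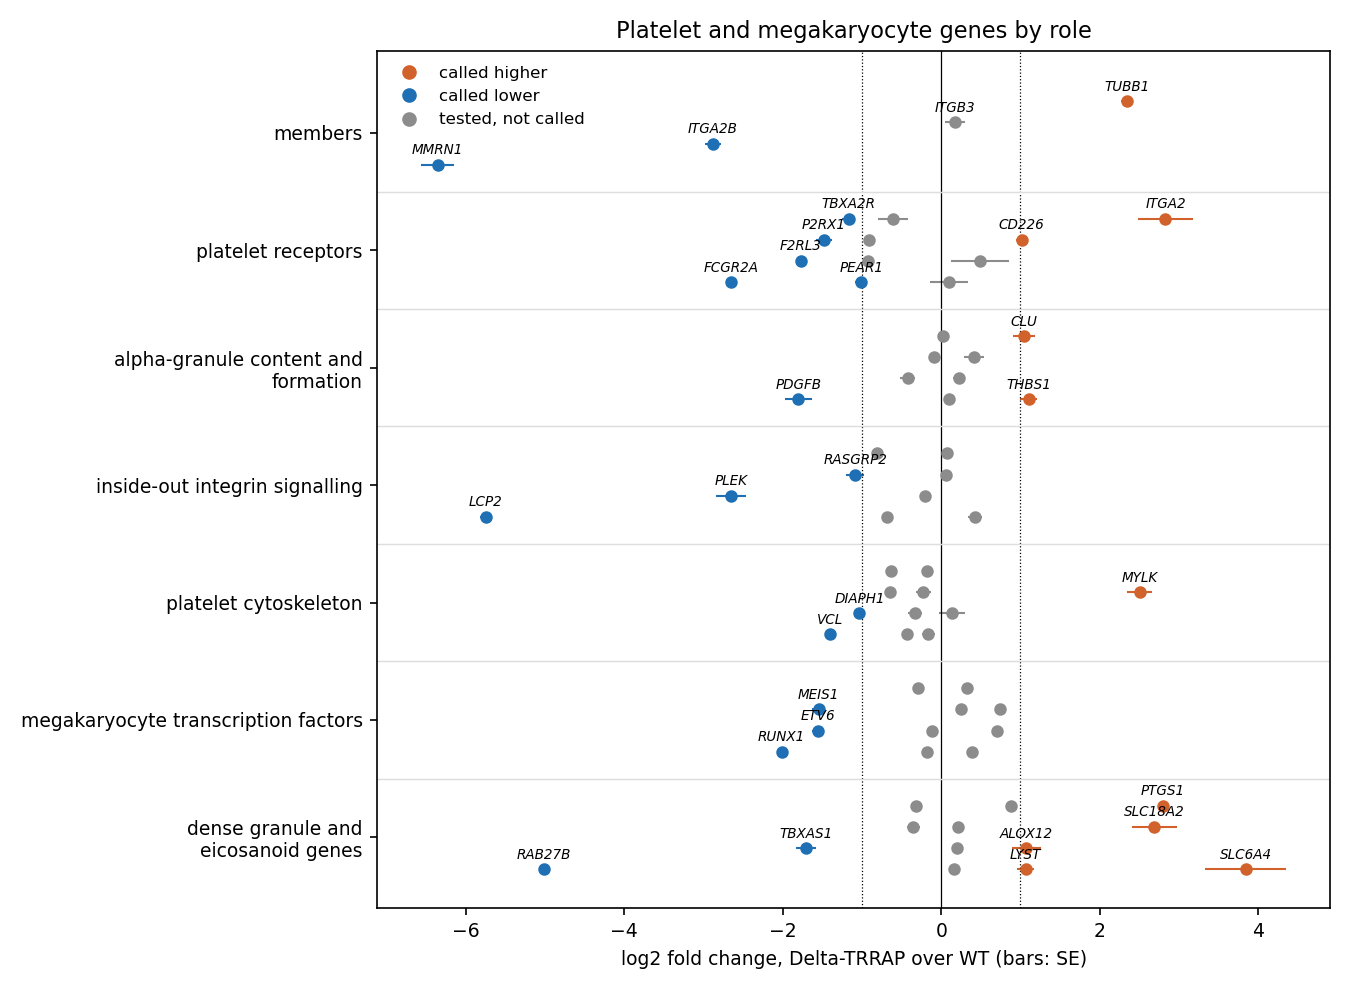
Log2 fold change of Delta-TRRAP over WT (horizontal axis, bars are SE) for the tested members and the tested genes of 6 role lists, coloured by call, with dotted lines at a 2-fold change. LCP2 at -5.75 and RAB27B at -5.01 lie nearest to MMRN1, and the receptors called lower outnumber those called higher, 5 to 2.

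The transcription factors of the lineage were mostly expressed in both groups. Of 12, 11 were tested, 3 fell and 0 rose by edgeR and by DESeq2, with 5 higher at an unadjusted p under 0.05 and a median of -0.12. The shares over all genes tested were 16.5% higher and 6.08% lower. RUNX1 dropped from 6142 ± 273 normalized counts to 1522 ± 84.6 (SD, n = 3 each), a log2 fold change of -2.01 ± 0.06 (SE) at an edgeR adjusted p of 2.19e-13. ETV6 and MEIS1 fell by 1.56 and 1.54. GATA1 was at -0.18 ± 0.05 and GFI1B at -0.30 ± 0.05 (SE), both under 2-fold. NFE2, the p45 subunit of NF-E2, had 4753 ± 73.4 normalized counts in WT and 7774 ± 356 with Delta-TRRAP, or 0.71 ± 0.05 (SE) on the log2 scale, also under 2-fold. FLI1, an ETS factor of megakaryocytes, had 0 to 2 counts in each library and was not tested.

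Marker lists of other cell types moved as well. In WT the 8 fibroblast markers summed to between 35.5 and 57.0 normalized counts, and in Delta-TRRAP to between 910 and 973, nearly all of it COL1A2, while LUM and PDGFRA had no counts. The 6 monocyte and granulocyte markers summed to between 8022 and 8821 in WT, against 903 to 966 in Delta-TRRAP, nearly all of it LYZ, which fell by 3.27 on the log2 scale. Of the 4 tested, 1 fell and 1 rose, against 6.08% lower and 16.5% higher over all genes tested, and their median log2 fold change was 1.32. The one that rose was MPO, the granule enzyme myeloperoxidase, from 0.320 ± 0.554 to 19.4 ± 1.08 normalized counts. With a minimum of 50, 1 was tested and the median was -3.27, and with no minimum 6 were tested, 2 higher and 1 lower. MPO passed the count minimum only through Delta-TRRAP, and CD14 had group means of 9.77 or less. The part of these shifts in the changes of the members was not tested.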

How the data were processed

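The authors deposited, for each library, unnormalized counts of reads per gene, made from poly(A) RNA by aligning to hg38 with STAR, keeping uniquely mapping reads, and counting with HTSeq 2.0.2 by strand in union mode on GENCODE genes. Each count file was the only input per library. A table of counts divided by size factors, with 3 columns of another condition, and the authors' table of means, fold changes and p-values for this comparison were not used.

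The test was that of edgeR 4.0.16, run in R 4.3.3 (TMM scaling, quasi-likelihood F test, group as the only term), with Benjamini-Hochberg adjustment over 19114 genes whose mean normalized count was at least 5, out of 34998 with any count. Calls needed an adjusted p of 0.01 or less plus a change of at least 2-fold. The script was tested on simulated data. Levels are normalized counts or, between genes, CPM per kilobase of exon, both with TMM scaling. Exact 95% intervals came from SciPy 1.17.1 and cover counting error only. Exon models came from GENCODE 44, a release other than the authors', in which 19041 of the tested genes matched by ID. Promoters came from RefSeq (GRCh38.p14).

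Members and lists were chosen with earlier results of these data known. Named genes were the members, the called gene with the largest rise and fall of each list, genes that form a complex with a member or share its cluster, genes within 100 kb, and, for MMRN1 and TUBB1, the 3 nearest profiles (Euclidean distance of centred log2 CPM). Other genes, such as ITGB5, ETV6, MEIS1, PTGS1, TBXAS1 and PLEK, were named after their values were seen. Replicate numbers are not said to pair the libraries, and no pairing was seen in the values. Alternatives were DESeq2 1.42.0, limma-voom (limma 3.58.1), other scalings, filters and thresholds, a replicate block, and leaving out each library. Some genes under this rule are not reported here.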

Additional observations from a re-analysis of the deposited data

How the results depend on the processing

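The calls of the members held in all 17 alternatives, with 3 called, 1 higher and 2 lower. Over all genes, 4322 were called, 3160 of them higher. A mean normalized count of at least 50 gave 1968 called and 1180 higher, with fewer genes tested. A fold change of 1.5 gave 6750 called and 2562 lower. Same-numbered libraries had correlations of -0.011, -0.035 and -0.024 in their deviations from the group means. These values showed no pairing by number, but cannot tell whether libraries were handled together. The fit with the replicate block called 4184 genes and changed no call of a member. The other platelet and megakaryocyte genes had 26 calls among 65 tested, against 22.6% called over all genes tested, and 23 to 36 calls over the alternatives. The 36 came with the fold change of 1.5, at which 6750 of all 19114 genes tested were called. The median log2 fold change of all genes was 0.03 with TMM, 0.13 with upper quartile and 0.17 with library size scaling, and 73.1%, 77.9% and 79.6% of calls were higher. With library size scaling PEAR1, RASGRP2 and DIAPH1 were no longer called and HPS1 was, at 1.02. The median of the transcription factors turned from -0.12 to 0.02 with library size scaling. Depth limits GP9, PF4, PPBP and SELP, which had at most 5 counts per library. On the unshared exon length of ITGB3, an alternative chosen after seeing the data, the mean ratio of ITGA2B to ITGB3 was 6.09 in WT and 0.733 in Delta-TRRAP, against 9.12 and 1.10 on the full length. The minimum of 50 also turned the median of the integrin alpha genes from 2.08 to -0.38, with 3 in place of 12 tested. DESeq2 ended the call of CD226.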
